A study of Arabidopsis thaliana with 33 samples.

Results

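Open chromatin of cold-treated Arabidopsis thaliana seedlings was mapped with 2 assays, DNase-seq and FAIRE-seq, and the 2 resulting peak lists are compared here. The 2 lists held 127384 of the 698102 peaks in the 10 lists of the series: 64324 in DNase-seq and 63060 in FAIRE-seq, on chromosomes 1 to 5. A peak was called shared when it had at least 1 base in common with a peak of the other assay, and DNase-only or FAIRE-only otherwise. The seedlings were of accession Col-0, 10 days old, grown with 3% sucrose and held at 4 °C for 24 h, and the unstressed control seedlings of the same age and accession were not cooled. Lists from heat-, salt- and drought-stressed seedlings are used to ask where else a cold peak was found, and once for counts beside those of cold. Those seedlings, also 10 days old, had 38 °C for 6 h, 250 mM NaCl for 6 h or drought for 1 h, so durations differ from cold. Each cold list pools 2 libraries and each other list 3, so there is no replicate error, and every 95% interval given (Wilson) covers counting error only. The libraries come from whole seedlings, in which a site open in fewer cells and a site less open in every cell cannot be told apart.

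DNase-seq sequences the fragments that the nuclease DNase I releases from chromatin it can reach in isolated nuclei. FAIRE-seq fixes the tissue with formaldehyde and recovers the DNA that is not held in crosslinked protein, so it measures depletion of bound protein rather than access by an enzyme. In the cold response of Arabidopsis, the AP2/ERF transcription factors CBF1, CBF2 and CBF3 are induced within hours by regulators such as ICE1 and CAMTA3, and in turn activate COR genes, whose products protect membranes and proteins during freezing.

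The assays overlapped at most sites and yet covered different bases. Of the cold DNase-seq peaks, 41976 (65.3%, interval 64.9 to 65.6%) were shared and 22348 were DNase-only. Of the cold FAIRE-seq peaks, 44108 (69.9%, interval 69.6 to 70.3%) were shared and 18952 were FAIRE-only. The share was nearly the same on every chromosome, 64.8 to 66.5% in DNase-seq and 69.3 to 70.6% in FAIRE-seq. DNase-seq peaks covered 17.1 Mb and FAIRE-seq peaks 14.1 Mb, with 9.04 Mb under both, which is 52.7% of the bases in DNase-seq peaks and 64.0% of those in FAIRE-seq peaks. In the 45614 overlapping pairs, the 2 summits lay a median of 55 bp apart, and the DNase-seq peak was the wider in 60.8% of pairs.

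Unshared peaks were narrow and weak as a group. The median width was 160 bp for DNase-only against 246.5 bp for shared DNase-seq peaks, and 138 bp for FAIRE-only against 209 bp for shared FAIRE-seq peaks. The fold enrichment over background that the authors' peak caller gave had a median of 2.24 for DNase-only and 2.57 for shared DNase-seq peaks. In FAIRE-seq the medians were 2.39 and 2.57, so the distributions overlapped widely. From the lowest to the highest 10% of the list by fold enrichment, the shared portion rose from 44.2 to 90.5% in DNase-seq and from 58.4 to 87.0% in FAIRE-seq. Ranked by width it rose from 40.3 to 94.9% and from 43.9 to 97.0%. A wide peak has more bases to share, and when a match required summits within 150 bp, the shared portion of the widest 10% was 62.8% in DNase-seq and 62.2% in FAIRE-seq.

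**Figure D1:**
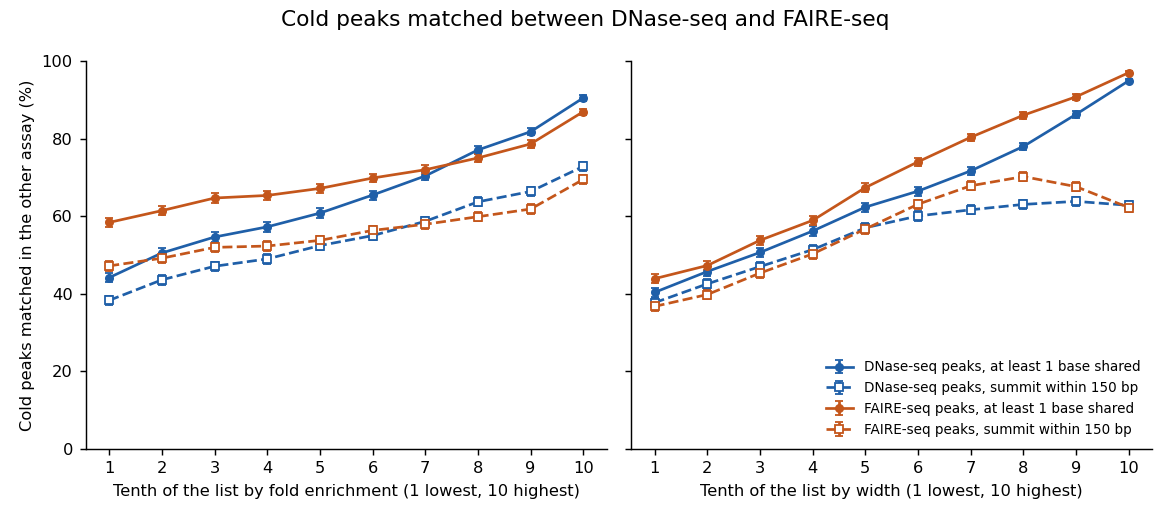
Percent of cold peaks matched in the other assay (vertical axis) for steps of 10% of a list ranked by fold enrichment (left) or by width (right); solid lines count a match of at least 1 base, dashed lines summits within 150 bp, and bars are 95% Wilson intervals. By fold enrichment all 4 lines rise, to 90.5% for DNase-seq and 87.0% for FAIRE-seq at 1 base, and by width the summit criterion reaches 62.8% and 62.2% in the widest 10%.

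**Figure D2:**
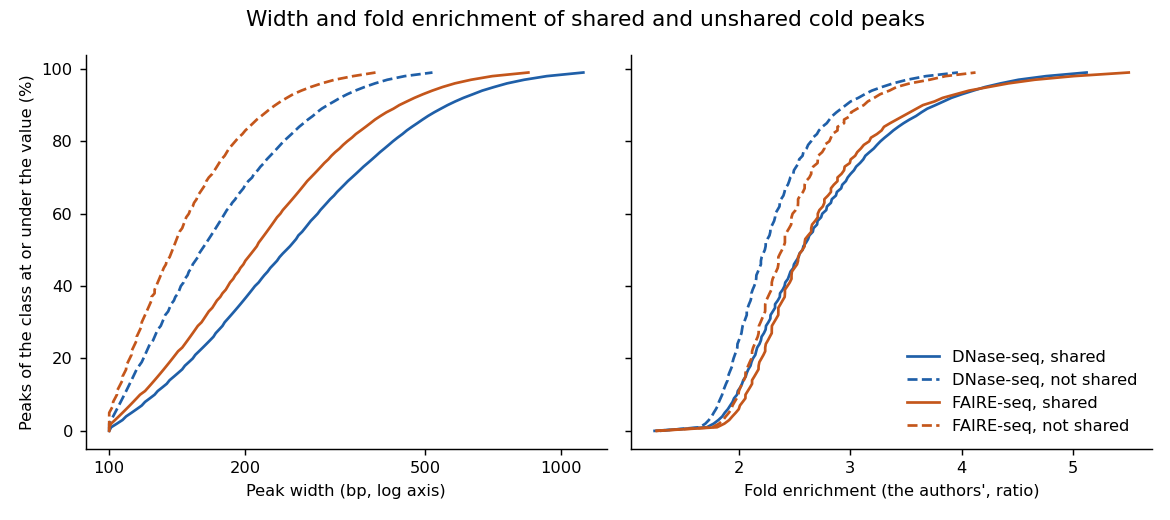
Cumulative percent of peaks (vertical axis) at or under a given width in bp (left, log axis) or fold enrichment (right), for shared (solid) and unshared (dashed) cold peaks of each assay, drawn up to the 99th percentile. Unshared peaks are narrower, with medians of 160 and 138 bp against 246.5 and 209 bp, while the fold enrichments overlap, with medians of 2.24 and 2.39 against 2.57 in both assays.

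A strong site in 1 assay was often not a strong site in the other. Among the strongest 10% of DNase-seq peaks, 32.6% (interval 31.5 to 33.7%) overlapped a FAIRE-seq peak that was itself in the strongest 10%, and the converse was 33.7% (interval 32.6 to 34.9%). Across 36095 pairs in which each peak had 1 partner, Spearman's rho was 0.39 for fold enrichment and 0.48 for width. This describes sites that share a genome, seedlings of the same treatment and the local base composition, which was not measured. Few unshared peaks were near misses, since the gap to the nearest peak of the other assay had a median of 507 bp for DNase-only and 493 bp for FAIRE-only peaks, and was under 50 bp for 4.26% and 5.002% of them. Conversely, 2.80% of shared DNase-seq peaks and 2.90% of shared FAIRE-seq peaks overlapped by fewer than 50 bases.

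The strongest sites in both assays were also sites of every other condition. The strongest pair lay inside AT2G16586 on chromosome 2, where the DNase-seq peak at 7190872 to 7191571 (TAIR10, as all coordinates here) had a fold enrichment of 8.51 and the FAIRE-seq peak at 7190867 to 7191576 one of 11.8. Other genes with such a pair near an end were AT3G20362 (7.79 and 10.1), EMF1, a Polycomb-associated repressor of flowering (6.93 and 6.48), WRKY47, a WRKY transcription factor (6.30 and 6.36), and BTS, an E3 ligase of iron homeostasis (5.63 and 7.72). In that order these sites lay 76, 546, 685 and 162 bp outside the gene. All 10 genes named by this rank, with 9 distinct pairs, had theirs in all 8 lists of the other conditions. The edges of the 2 peaks were within 10 bp of each other at both ends in 3 of the 12 strongest pairs (25%, interval 8.89 to 53.2%), against 2.27% of the pairs in the lower 50%, by the lower of their 2 ranks. All 12 were found in all 8 other lists, as were 38.9% of that lower 50%. Of all 45614 pairs, 53.0% were found in all 8 other lists.

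The 2 assays parted most clearly around genes. Protein-coding genes hold 54.1% of the bases of chromosomes 1 to 5 and the 1000 bp on either side of them, called flanks, another 20.4%. DNase-only summits fell within genes in 78.8% (interval 78.3 to 79.4%) and in flanks in 5.88% (interval 5.57 to 6.19%). FAIRE-only summits fell within genes in 60.8% (interval 60.2 to 61.5%) and in flanks in 16.6% (interval 16.1 to 17.1%). Shared peaks of the 2 assays differed less, with 75.4% in genes and 8.85% in flanks for DNase-seq against 74.6% and 10.1% for FAIRE-seq.

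The contrast widened with strength. Of the 610 DNase-only peaks in the strongest 10% of their list, 93.4% (interval 91.2 to 95.1%) had the summit in a gene and 2.95% in a flank. Of the 822 such FAIRE-only peaks, 22.3% (interval 19.6 to 25.2%) had it in a gene and 49.3% (interval 45.9 to 52.7%) in a flank. For shared peaks of the strongest 10% the values lay in between in cold, with 84.9% in genes for DNase-seq and 50.8% for FAIRE-seq. In the control lists, 90.8% of strong DNase-only and 92.8% of strong shared DNase-seq summits were in genes, so the shared ones were not lower there, and in FAIRE-seq the values were 21.5% for FAIRE-only and 56.2% for shared summits.

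On a finer scale, the strong DNase-only summits were densest 200 bp inside gene ends, at 3.33 times their mean density within 1000 bp of the ends, and sparsest 100 bp outside, at 0.133 times. The strong FAIRE-only summits were densest 100 bp outside the ends, at 3.48 times the mean, and sparsest 500 bp inside, at 0.0246 times. Strong shared DNase-seq summits were densest 400 bp inside (2.44 times), and strong shared FAIRE-seq summits 100 bp outside (1.88 times). Among all peaks, DNase-only summits were densest 300 bp inside, FAIRE-only summits 100 bp outside, and shared summits of both assays 400 bp inside. The gene table gives no strand, so the start and the end of a gene cannot be told apart here.

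**Figure D3:**
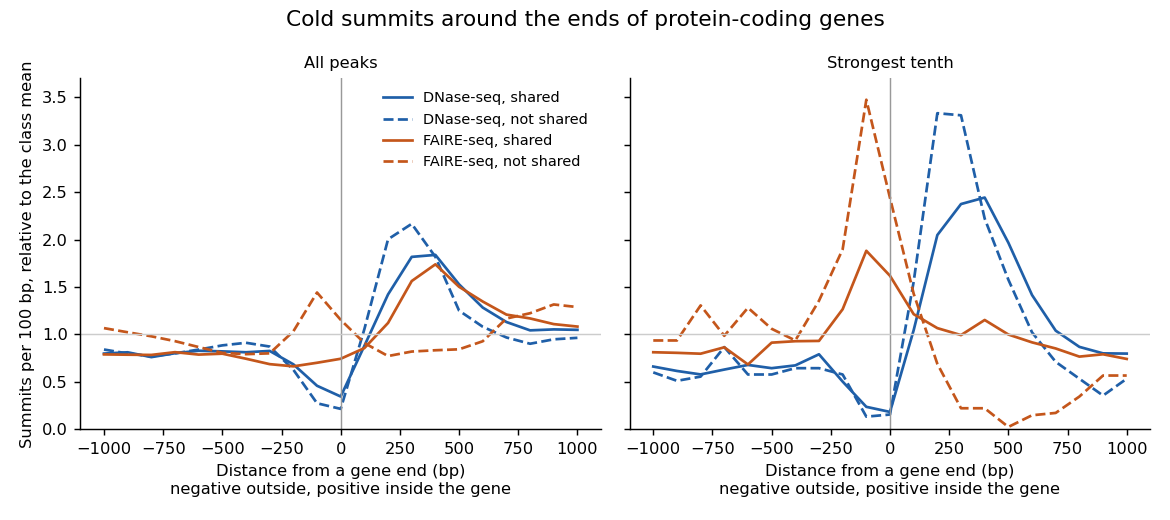
Density of cold summits per 100 bp, relative to the mean of the class (vertical axis), by distance from the ends of protein-coding genes in bp (horizontal axis, positive inside the gene), for all peaks (left) and the strongest 10% of each list (right). The strong DNase-only summits peak at 3.33 times the mean 200 bp inside, where the strong FAIRE-only summits are below their mean, and the latter peak at 3.48 times 100 bp outside.

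Within pairs an offset appeared close to gene ends. Among pairs with 1 partner each, a FAIRE-seq peak in the strongest 10% and a DNase-seq summit 100 to 200 bp inside a gene, the FAIRE-seq summit lay towards the gene end in 76.4% (interval 71.1 to 81.1%) of the 276 pairs whose summits were over 20 bp apart, and the median shift over all 362 such pairs was 41 bp. Over pairs of any strength it was 60.0% (interval 57.9 to 62.1%) with a median of 13 bp. For DNase-seq summits 200 to 300 bp inside, it was 49.1% (interval 47.1 to 51.1%) over pairs of any strength. With a strong FAIRE-seq peak it was 69.0% (interval 63.1 to 74.3%) there, with a median shift of 45 bp. At 300 to 400 bp inside, again with a strong FAIRE-seq peak, it was 57.1% (interval 50.9 to 63.0%). With a strong FAIRE-seq peak and a DNase-seq summit 600 to 1000 bp inside, the figure was 50.2% (interval 44.2 to 56.2%). At the 318 gene ends with a strong FAIRE-only summit within 300 bp outside, 54.1% (interval 48.6 to 59.5%) also had a DNase-seq summit 50 to 500 bp inside, against 46.6% of all 54864 gene ends. This was not particular to FAIRE-only summits. At the 1475 ends with a strong shared FAIRE-seq summit there, the figure was 55.9% (interval 53.4 to 58.4%).

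The genes next to the strongest unshared peaks were placed as follows. The FAIRE-only peak with the highest fold enrichment at a gene end, 5.89, was at 15409470 to 15409683 on chromosome 5, with its summit 104 bp outside GRF3, which encodes a 14-3-3 protein. Among those that followed were SDR4, a short-chain dehydrogenase gene (5.60), AGL42, a MADS-box gene (5.54), ERF10, an ethylene response factor gene (5.48), and GSTF6, a glutathione S-transferase gene (5.36). Their summits lay 278, 110, 100 and 102 bp outside the gene. All 10 genes named by this rank had the summit outside the gene, at 33 to 860 bp, and their 7 distinct peaks were all in the control FAIRE-seq list too. The highest DNase-only peaks at gene ends had fold enrichments of 5.29 at AT2G05915, 5.16 at AT1G45180, 4.99 at ATS, a KANADI transcription factor gene, and 4.95 at SPR1, a microtubule protein gene. Of the 10 genes named by this rank, 3 had the summit inside the gene, AT2G05915 at 159 bp among them, and 7 had it 473 to 874 bp outside, AT1G45180, ATS and SPR1 among them. Outside refers to the named gene only, and the ATS peak had its summit 136 bp inside the neighbouring AT5G42635. The 9 distinct peaks of the 10 genes were all in the control DNase-seq list too.

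Other gene classes differed between the assays as well. Of 27432 protein-coding genes, 76.3% carried peaks of both assays over the gene body, 9.52% of DNase-seq alone and 3.92% (interval 3.69 to 4.15%) of FAIRE-seq alone. Of 625 tRNA genes, 25.1% (interval 21.9 to 28.7%) carried FAIRE-seq peaks alone and 1.60% DNase-seq peaks alone. The 287 snoRNA genes went the other way, with 10.5% (interval 7.42 to 14.5%) under DNase-seq alone and 2.44% (interval 1.19 to 4.95%) under FAIRE-seq alone, and 81.2% had no peak. Peaks of neighbouring genes and of repeated tRNA copies were not separated.

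Most unshared cold peaks were found again in the same assay without cold. The control DNase-seq list held 87.0% of DNase-only peaks, about as much as the 88.5% of shared DNase-seq peaks, whereas the control FAIRE-seq list held 35.3% of the former and 90.3% of the latter. DNase-only peaks were found in 80.8% and 78.5% in the salt and drought FAIRE-seq lists, which cover 26.2 and 26.4 Mb against 17.5 Mb in control. In none of the 4 other FAIRE-seq lists were 2637 DNase-only peaks (11.8%). FAIRE-only peaks were in the control FAIRE-seq list in 71.3% and in the control DNase-seq list in 23.2%. The heat, salt and drought DNase-seq lists held 22.8, 16.5 and 5.86% of them, with 17.8, 18.3 and 12.7 Mb covered. In none of the 4 other DNase-seq lists were 10678 FAIRE-only peaks (56.3%).

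**Figure D4:**
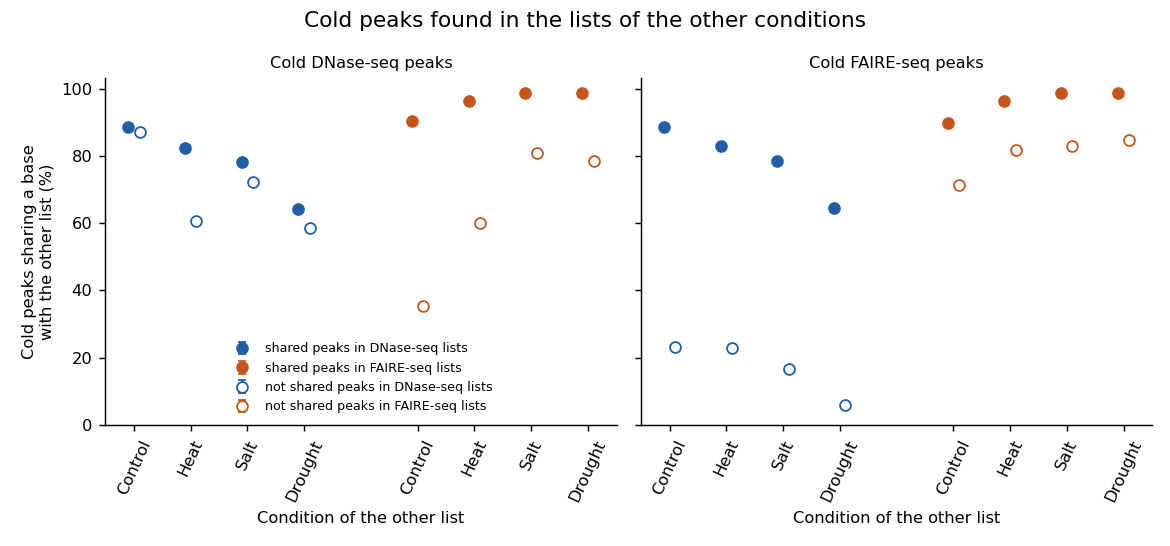
Percent of cold DNase-seq peaks (left) and cold FAIRE-seq peaks (right) that share at least 1 base with each list of the other conditions (vertical axis), for shared (filled) and unshared (open) peaks, blue for DNase-seq lists and orange for FAIRE-seq lists; 95% Wilson bars are mostly hidden by the markers. Shared and DNase-only peaks are nearly equally common in the control DNase-seq list (88.5 and 87.0%), but the control FAIRE-seq list holds 90.3% of the former and 35.3% of the latter.

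FAIRE-seq sites that lacked DNase-seq in control were joined by it in cold most often in gene flanks. Of the cold FAIRE-seq peaks, 53163 were also in the control FAIRE-seq list, and at 15228 of these the control had no overlapping DNase-seq peak. Cold DNase-seq had a peak at 4550 of the 15228 (29.9%, interval 29.2 to 30.6%), while 2837 of the 37935 sites with a control DNase-seq peak (7.48%) had none in cold. In flanks these counts were 1354 of 3844 (35.2%, interval 33.7 to 36.7%) and 323 of 3248 (9.94%). Within genes they were 2457 of 8216 (29.9%) and 1794 of 28449 (6.31%), and elsewhere 739 of 3168 (23.3%) and 720 of 6238 (11.5%). The sites joined by DNase-seq in cold were densest 100 bp outside gene ends, at 1.70 times their mean. The control DNase-seq list, with 3 libraries, has 70807 peaks against 64324 in cold, and depth is unknown. Whether list length, depth or the peak threshold played a part was not tested. With a −log10 q of at least 5 required in all 4 lists, the counts were 2951 joined in cold and 2609 joined in control alone.

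Genes of the cold response held many of these joined sites. The 39 genes comprised 23 cold-regulated genes and 16 of cold signalling, and a gene was counted when the FAIRE-seq summit lay from 1000 bp outside to 200 bp inside either of its ends. Of the 39, 16 (41.0%) had such a site, where 11.8% of all 27432 protein-coding genes did. By list these were 11 of the 23 cold-regulated genes (47.8%) and 5 of the 16 signalling genes (31.25%). A site joined by DNase-seq in control alone was found at 1 of the 39, MYB15, a negative regulator of the CBF genes, against 4.14% of all genes. Sites joined in cold were also at 4 of 13 vernalization and flowering genes (30.8%), 5 of 20 circadian clock genes (25%) and 4 of 20 abscisic acid and drought genes (20%). They were at 3 of 20 photosynthesis genes (15%), 2 of 15 reference genes (13.3%) and 2 of 18 seed maturation genes (11.1%). Heat, measured against the same control lists, joined sites at 15 of the 39 cold genes (38.5%), beside 22.0% of all genes. For salt the values were 2 of 39 (5.13%) beside 0.463% of all genes, and for drought 6 of 39 (15.4%) beside 1.87%. When no control DNase-seq peak was allowed within 500 bp, 4 of the 39 genes were left for cold, COR47, ERD14, BAP1 and RHL41, beside 4.61% of all genes, so most joined sites had a control DNase-seq peak close by.

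The signalling genes among the 16 were CBF2, CBF3, ICE1, RHL41 and STZ. Counted by gene, all of these except STZ also had a joined site in heat against control, and CBF2 had one in drought too. At 89 bp outside CBF2, on chromosome 4, the cold FAIRE-seq peak at 13016210 to 13016471 had a fold enrichment of 4.62, above 97.8% of its list, and met a DNase-seq peak at 13016252 to 13016419 with 3.21. In control the FAIRE-seq peak at 13016227 to 13016472, with 3.55 above 95.9% of its list, stood without DNase-seq. The site 148 bp outside CBF3 had the same form, with a cold FAIRE-seq peak at 13017781 to 13018035 (4.46), a cold DNase-seq peak at 13017801 to 13017955 (2.43) and only a FAIRE-seq peak in control (3.90). Both FAIRE-seq values were in the upper 10% of their lists, and values of different lists are not on 1 scale. CBF1, the neighbouring gene, differed, since its 3 DNase-seq and 3 FAIRE-seq cold peaks were all shared, and all were in the control lists of the same assay. Within the CBF2 gene body a cold DNase-seq peak of 583 bp with a fold enrichment of 3.81 held 2 FAIRE-seq peaks of 100 bp each, with 2.17 and 2.23, where the control had the DNase-seq peak alone. RHL41 and STZ, which encode zinc finger proteins induced by cold and other stresses, had joined sites with cold FAIRE-seq fold enrichments of 4.16 and 2.95 and cold DNase-seq values of 2.18 and 2.80. ICE1, the bHLH activator of the CBF genes, had values of 3.00 and 2.16 at a site 105 bp inside the gene.

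Cold-regulated genes with a joined site included membrane proteins, dehydrins and lipid enzymes. Counted by gene, all of them except KIN1, KIN2 and GRP7 also had a joined site in heat. KIN1 and KIN2 had one in drought, and GRP7 had one in cold alone. RCI2A, a small membrane protein gene, had the highest FAIRE-seq value among them, 4.71 at 1755342 to 1755501 on chromosome 3, 68 bp outside the gene, with a DNase-seq value of 2.92. The dehydrin genes ERD14, LTI30 and COR47 had FAIRE-seq values of 3.88, 3.13 and 2.66 and low DNase-seq values of 1.89, 1.88 and 2.12. SFR2, a galactolipid-remodelling enzyme of chloroplast membranes, had 2 joined sites, and FAD8, a cold-inducible fatty acid desaturase, had 1. GRP7, a clock-controlled RNA-binding protein, had 2.89 in FAIRE-seq and 2.06 in DNase-seq at a site 221 bp outside the gene. KIN1 and KIN2 were counted through 1 site between them, where a cold DNase-seq peak of 810 bp at 5211673 to 5212482 on chromosome 5 reached a FAIRE-seq peak at 5211636 to 5211878. In control the DNase-seq peak at 5211936 to 5212446 and the FAIRE-seq peak at 5211605 to 5211926 did not touch. With a match of summits within 150 bp instead, 15.6% of all genes had a joined site, against 11.8% with a match of 1 base. Of the 39 cold genes, 16 again had one, but not the same ones. KIN1, KIN2, ERD14, GRP7 and FAD8 were no longer among them, and COR15B, COR413IM1, COR314-TM2, COR28 and HOS1 were.

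**Figure D5:**
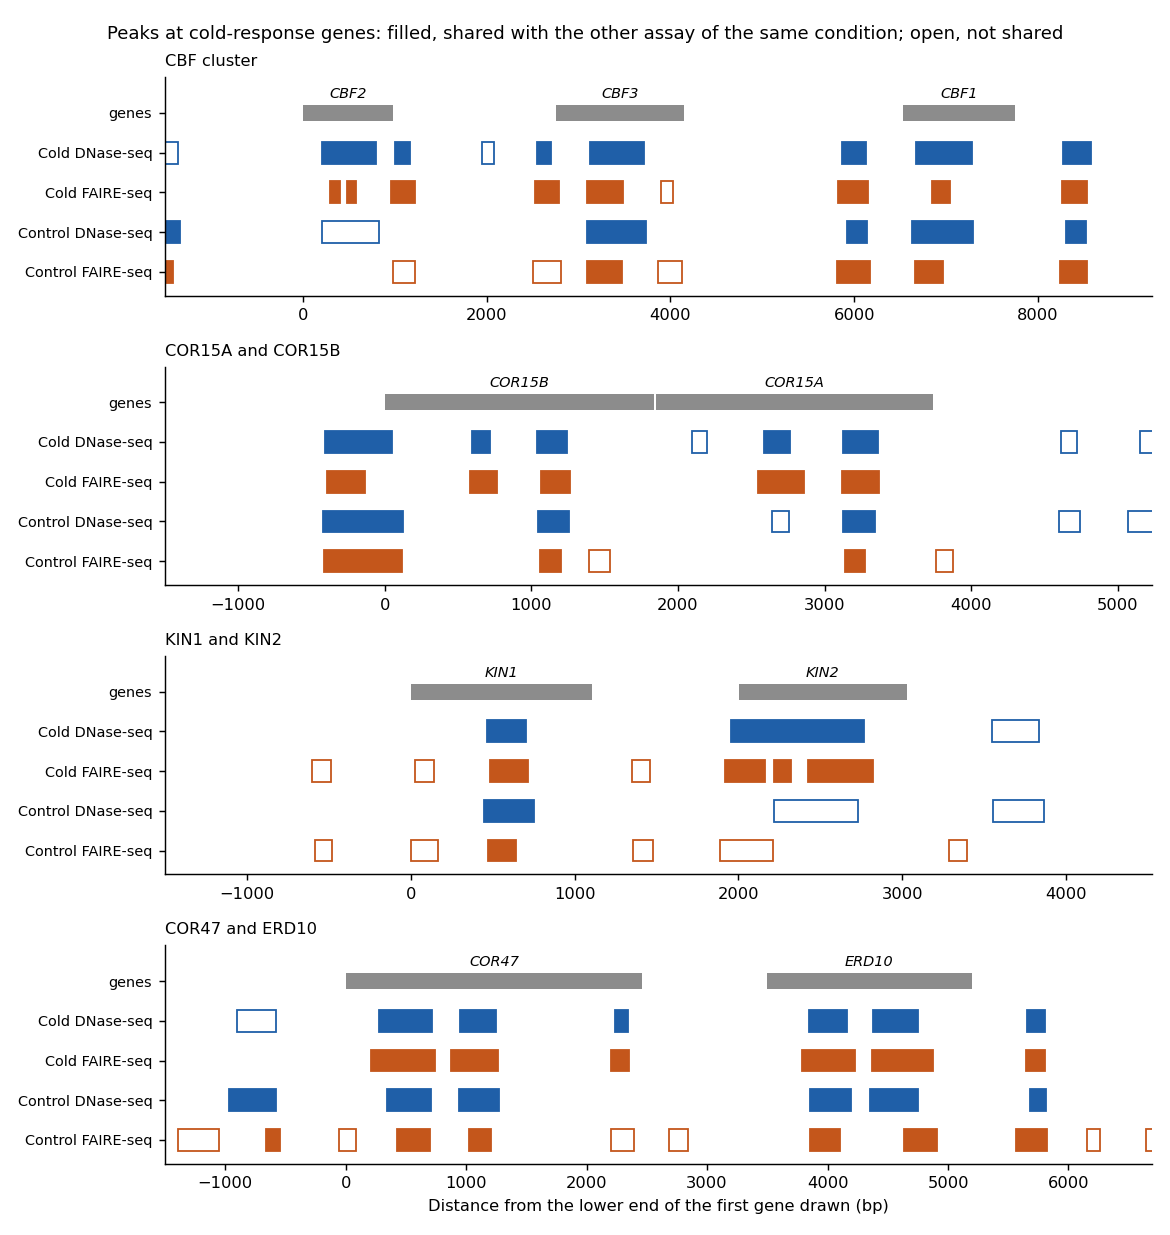
Peaks at 4 cold-response loci in bp from the lower end of the first gene (horizontal axis), with genes in grey, DNase-seq in blue and FAIRE-seq in orange, cold above control; filled boxes are shared with the other assay of the same condition and open boxes are not. Beside CBF2 and CBF3 the control FAIRE-seq boxes are open and the cold ones filled, with cold fold enrichments of 4.62 and 4.46 in FAIRE-seq and 3.21 and 2.43 in DNase-seq.

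COR15A, which encodes a chloroplast protein protecting membranes in freezing, showed the reverse order. Inside its annotated span on chromosome 2, the control had a weak DNase-seq peak at 17711236 to 17711348, with a fold enrichment of 1.99 above 10.3% of its list, and no FAIRE-seq peak overlapped it. A second site in the span, with control peaks of both assays, was shared in cold as well. At the first site, the cold DNase-seq peak at 17711180 to 17711359 had 2.82, above 70.9% of its list, and a FAIRE-seq peak at 17711142 to 17711451 had 5.06, above 98.7% of its list. Across the genome, FAIRE-seq had a cold peak at 3572 of the 16284 DNase-seq sites of both conditions that lacked one in control (21.9%), and no longer had one at 6733 of 40291 (16.7%). GI, a circadian clock gene, had a shared site 983 bp outside the gene, with a DNase-seq value of 3.85, above 93.9% of its list, and a FAIRE-seq value of 4.998. In control the site was also shared, and its DNase-seq value of 2.13 was above 16.7% of the list.

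Most cold genes carried both assays at their ends. Of the 23 cold-regulated genes, 20 had summits of both assays in the window at the gene ends, where 61.7% of all genes did, KIN1 had FAIRE-seq alone (10.0% of all genes) and none had DNase-seq alone (10.7% of all genes). RD29A, a classical cold- and drought-induced gene, and COR27, a clock-associated regulator, had no summit there (17.6% of all genes), and over the whole gene with 1000 bp on either side all 23 had both (88.4% of all genes). A DNase-only summit was at 10 of the 23 (35.2% of all genes) and a FAIRE-only summit at 6 (29.2% of all genes). The 3 FAIRE-only peaks at the ends of KIN1 had fold enrichments of 2.52, 2.47 and 2.65, and all were FAIRE-only in control too. COR47 had a DNase-only peak at 7083508 to 7083835 on chromosome 1 with 2.87, 738 bp outside the gene, which had been shared in control.

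Of the 16 signalling genes, 11 (68.8%, beside 61.7% of all genes) had summits of both assays at their ends, CZF1 and CRLK1 had DNase-seq alone (12.5% beside 10.7%), ICE2 had FAIRE-seq alone (6.25% beside 10.0%), and OST1 and DREB2A had none (12.5% beside 17.6%). These shares are near those of all genes. CRLK1, a calcium- and calmodulin-regulated receptor-like kinase gene, was the only 1 of the 39 cold genes with a single assay over the whole gene and its flanks, which 4.51% of all genes had in DNase-seq and 2.47% in FAIRE-seq. Its 5 DNase-only summits had fold enrichments from 1.90 to 3.98. Among signalling genes chosen after their values were seen, HSFC1, a heat shock factor gene, had the highest FAIRE-only peak (3.94, 159 bp inside the gene), and HOS1, the E3 ligase that targets ICE1, a DNase-only peak of 3.46 at 140 bp inside the gene.

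The comparison lists differed in how many members had shared summits. Shared DNase-seq summits were at the ends of 17 of 20 circadian clock genes, 18 of 23 cold-regulated genes, 11 of 15 reference genes, 9 of 13 vernalization and flowering genes, 10 of 16 signalling genes, 11 of 20 abscisic acid and drought genes, 8 of 18 seed maturation genes and 7 of 20 photosynthesis genes, where 56.7% of all genes had one. Shared FAIRE-seq summits were at 18, 21, 12, 10, 10, 14, 9 and 7 members in the same order, where 58.6% of all genes had one. The photosynthesis list also had 5 of 20 members with both a DNase-only and a FAIRE-only summit at the ends, LHCB1.3, LHCB2.2, LHCB3, LHCB6 and LHCA2, all encoding light-harvesting proteins, where 11.0% of all genes had both. Reads of near-identical copies within the light-harvesting and RBCS families may be placed on either copy. Over the whole gene and its flanks all 20 photosynthesis genes had shared summits, as 84.0% of all genes did for DNase-seq and 84.1% for FAIRE-seq.

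FLC, the MADS-box repressor of flowering that prolonged cold silences, had both kinds of site. Its DNase-only peak at 3179089 to 3179343 on chromosome 5, 261 bp inside the gene, reached a fold enrichment of 3.77, above 92.8% of its list, and in control it was DNase-only as well, with 4.85, above 92.3% of that list. Outside the same end, 147 bp away, a FAIRE-seq peak at 3179522 to 3179655 with 2.47 met a DNase-seq peak at 3179577 to 3179746 with 1.95, and in control the FAIRE-seq peak stood alone with 2.96. Its relatives MAF2 and MAF3 had DNase-only peaks inside the gene in cold, at 225 and 283 bp, with 3.43 and 3.09. The overlapping control DNase-seq peak was DNase-only at MAF2 but shared at MAF3. MAF5 had a DNase-only peak 312 bp inside the gene with 2.37. It also had 4 FAIRE-only peaks, 1 at 124 bp outside the gene with 3.77 and 3 inside it with 2.36 to 2.71. In FLM the DNase-seq peak inside the gene was shared in cold, while the control peak overlapping it was DNase-only. MAF4 had no DNase-only peak in cold.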

How the data were processed

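Titles mark chromatin libraries with D or F, read here as DNase-seq and FAIRE-seq after the method names in the design text. Per the submitters' processing notes, the tools were FastQC, Bowtie2, TopHat2, SAMtools and MACS2, with the build TAIR10. Versions, settings, read extension or shift, the background library and the way of pooling libraries were not given in the sources used here. The deposited lists hold the fold enrichment (ratio) that the authors' caller assigned to each peak. Further deposited columns hold its p-value and q-value as −log10, and the authors' summit offset of another kind, in bases from the peak start; the deposited score column was not used. These are the authors' values, ranked only within a list; values of different lists printed side by side are not on 1 scale. Depth is unknown, as no list states read totals. Peak numbers in the cold FAIRE-seq list begin at 75, and earlier numbers were not analysed here, nor were the RNA samples.

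Overlaps, widths, summit places and gene counts were computed with Python 3.11.15, pandas 2.3.3, NumPy 2.4.6 and SciPy 1.17.1, after tests on simulated data. Wilson intervals are at 95%. With 1 pooled list per assay no test between conditions or assays was possible. Genes were placed with a RefSeq table (assembly TAIR10.1, no strand), set against the TAIR10 peaks. The density of cold DNase-seq summits was lowest at 0 bp from gene ends in 21 of 25 blocks of 5 Mb, and FAIRE-seq summits were not used in this check. No sequence was used here, so a planned search for promoter motifs was not run and no sequence is printed.

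All 145 genes of the 8 lists matched the table. Genes named are those with the highest fold enrichment at gene ends in each class (10 per class, by the lower of the 2 ranks for shared peaks), the genes COR15A, COR15B, COR47, KIN1, KIN2, ADH1, CBF1, CBF2, CBF3, GI and FLC, and list members. The members, lists and comparisons were chosen with earlier results of these data known. The sites joined by DNase-seq, and their settings, were chosen after seeing the data. Alternatives were a −log10 q of at least 5, lists of equal length, 50% of the shorter peak covered, summits within 150 bp, other gene-end windows and all annotated genes.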

Additional observations from a re-analysis of the deposited data

How the results depend on the processing

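No paired analysis was possible because each list pools its libraries, and for the same reason no replicate could be left out. Depth is unknown, and lists differ in length, covered bases and libraries pooled. Of all cold DNase-seq peaks, 55.8% were shared with a −log10 q of at least 5, 65.7% with lists of equal length, 61.7% with 50% of the shorter peak covered and 54.7% with summits within 150 bp. For FAIRE-seq the same settings gave 67.5, 69.2, 66.1 and 56.0%. DNase-only summits in genes were 80.9% with the stricter q, 80.0% by summits and 90.9% with all annotated genes, and in flanks 5.31, 5.55 and 6.49%. FAIRE-only summits in genes were 57.0% with the stricter q, 62.2% with 50% covered, 67.1% by summits and 73.4% with all annotated genes, and in flanks 19.98, 14.3 and 19.9% with the stricter q, by summits and with all genes. Genes with a DNase-only summit, 9667 at the ends, were 4415 in the narrower window, 17687 in the wider one and 16452 over the whole gene and 1000 bp either side, the last chosen after seeing the data. For FAIRE-only summits, 8009 became 4559, 14207 and 13369. The order of the assays in genes and flanks was the same under every setting run. For sites joined by DNase-seq, all settings were chosen after seeing the data: 4550 sites became 2951 with the stricter q, 7363 by summits and 1986 with no control DNase-seq peak within 500 bp. The last left 4 of the 16 cold genes and 1265 of 3225 genes in all. The narrower window gave 10 cold genes and 1944 in all, and the wider one 5463 in all. The cause of these moves was not tested.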
